A study of Mus musculus with 9 samples.

Results

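The 10 genes described here load and control the helicase that opens DNA at replication origins: Mcm2, Mcm3, Mcm4, Mcm5, Mcm6, Mcm7, Mcm10, Cdc6, Cdt1 and Gmnn. They were taken by name, as every probe set whose single platform gene symbol is one of these, which gave 23 of the 22626 probe sets tested and 10 of 12393 genes. Total RNA was measured in 6 alveolar rhabdomyosarcomas of the mouse, a soft-tissue tumour with skeletal muscle features, and in 3 samples of wild-type skeletal muscle as controls, each on 1 Affymetrix array. For the tumours, the labels used here give no genotype, driver, age or site, and for the controls no strain, age or named muscle. Nor do they say whether samples came from separate animals; the p-values therefore reflect only how these samples vary, part of which may be technical.

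In G1 phase the origin recognition complex binds DNA, and Cdc6 and Cdt1 load onto it the ring of Mcm2 to Mcm7, an inactive form of the replicative helicase; this step licenses the origin. In S phase kinases switch the ring on, Mcm10 takes part in its activation, and geminin, the product of Gmnn, binds Cdt1 so that origins are not licensed again. Adult skeletal muscle fibres do not divide, and E2F transcription factors are known to drive many of these genes in dividing cells.

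The promoters of several licensing genes carry E2F-type octamers, which are shown here as a description of the genes. RefSeq windows of 300 bases (GRCm38.p6, 250 before and 50 after the start of transcription) existed for 8 of the 10 genes, with 2 windows for Mcm7. The octamers TTTGGCGC, TTTCGCGC, TTTCCCGC and TTTGCCGC were searched on both strands, and overlapping matches were joined. At least 1 lay in a window of 6 of the 8 genes, against 2.6% of the 26994 mouse genes with a window. Of the 21524 windows with a GC content at or above the lowest among the members (48.7%), 3.1% held an octamer. The windows of Mcm2 and Mcm10 held none of these letters. The share was 33.3% of 15 other licensing genes, 25% of 8 origin firing genes and 33.3% of 24 replication fork genes. It was 50% of 8 genes of the E2F list and 8.33% of 12 mitosis genes. Whether these shares go with the calls was not tested. CCAAT also lay in windows of 6 of the 8 genes, but 41% of all genes had it. A match describes letters in the window, not a bound site. Printed next are 150 bases upstream of the Mcm6 start (chr1:128359706-128359855, minus strand), the gene with the largest difference between tumour and muscle, and the site nearest the start in 5 other genes; capitals mark the octamers.
Mcm6: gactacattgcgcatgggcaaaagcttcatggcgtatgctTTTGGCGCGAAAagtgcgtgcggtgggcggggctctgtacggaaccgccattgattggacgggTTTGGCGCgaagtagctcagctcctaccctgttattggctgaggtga
Mcm5: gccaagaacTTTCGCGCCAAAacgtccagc
Mcm7: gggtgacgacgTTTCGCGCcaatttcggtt
Mcm3: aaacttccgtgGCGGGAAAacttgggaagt
Cdc6: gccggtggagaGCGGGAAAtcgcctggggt
Cdt1: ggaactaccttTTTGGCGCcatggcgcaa

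In Mcm6 the capitals run from position -110 to -99 and from -47 to -40, counted from the start of transcription. In both Mcm6 and Mcm5 a pair of octamers on opposite strands overlap and together span 12 bases, from -153 to -142 in Mcm5 (chr8:75109347-75109376, plus strand). The sites shown for Mcm7 (chr5:138171849-138171878, minus strand), Mcm3 (chr1:20820275-20820304, minus strand) and Cdt1 (chr8:122568036-122568064, plus strand) begin after the start, at 17, 20 and 33. That of Cdc6 (chr11:98908002-98908031, plus strand) begins at -138. Sequences of Mcm4 and Gmnn were not analysed here.

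Before the genes themselves, the arrays need a word. The values are MAS5 signals, a linear brightness in arbitrary units. Muscle 1 and muscle 3 were deposited on a lower scale than the other 7 arrays, and all arrays were brought to 1 trimmed mean, which multiplied muscle 1 by 1.6995 and muscle 3 by 3.5493. A gene was called where its adjusted p was below 0.05 (limma on log2(signal + 16), Benjamini-Hochberg over all genes), and folds are on that offset scale, which understates changes of dim genes. In all, 17.8% of genes were called, 1073 of them higher in tumours and 1127 lower, and the median log2 difference of all genes was 0.10. Without the rescaling it was 0.79, and 86.5% of calls were higher instead of 48.8%. A measure of RNA quality differed between muscles: Gapdh, read at its 3' end relative to its 5' end, gave 57.2 on muscle 2, 33.0 on muscle 3 and 1.68 on muscle 1, where the tumours gave 1.93 to 9.39. The same ratio for Actb was 1.87, 4.06 and 4.35 in muscles 1 to 3, the last pair inside the tumours' range of 3.35 to 6.78. The part of RNA quality in the results was not tested. Markers of mature skeletal muscle were highest in the muscles: all 6 were called lower in tumours, with a summed signal of 780 to 58809 against 110594 to 154518. Of 4 myogenic markers added after the data were seen, Myod1 and Myog gave 282 to 1205 and 229 to 1170 in tumours and 300 to 716 and 384 to 745 in muscles, and were not called. Myf5 gave 80.6 to 2155 and 118 to 136 and was not called either. Des was called lower in tumours, at 91.5 to 371 in tumours 2 to 6 and 4036 in tumour 1, against 1551 to 4160 in muscles.

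All 10 licensing genes were called higher in the tumours, by 2.4-fold (Mcm10) to 11.8-fold (Mcm6), with a median log2 difference of 2.28. Among all genes 8.66% were called higher. For 9 of the 10 the tumour and muscle signals did not overlap, which held for 10.7% of all genes in that direction. The number called depended on the muscles, as it did over all genes. Without muscle 3, 6 of 10 were called, and 503 of all 12393 genes were called higher instead of 1073. With muscle 1 as the only muscle, the median log2 difference of the 10 was 2.05. In bulk RNA, more dividing cells and more RNA per cell cannot be told apart.

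**Figure D1:**
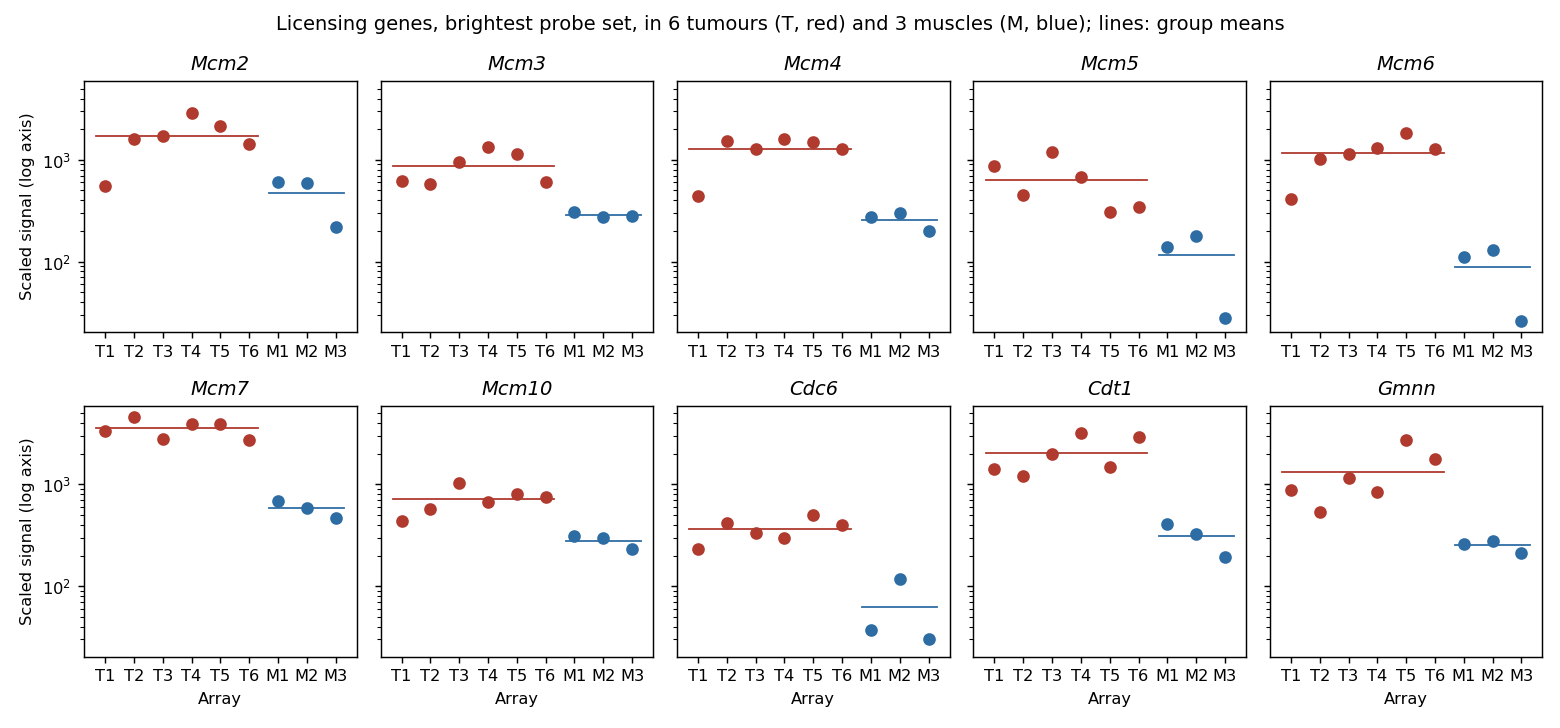
Scaled signal (log axis) of the brightest probe set of each licensing gene on the 6 tumour arrays (red) and 3 muscle arrays (blue), with lines at the group means. Every tumour lies above every muscle in each panel except that of Mcm2, where tumour 1 (554) lies below muscle 1 (601) and muscle 2 (587).

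Among the subunits of the ring, Mcm6 had the largest difference. Its signals in tumours had a lowest value of 408, a median of 1214 and a highest of 1840, and those in muscles 1 to 3 were 110, 131 and 26.2. The groups lay far apart, with tumour 1 the lowest tumour. The means were 1169 ± 466 (SD, n = 6) and 89.1 ± 55.5 (SD, n = 3), a log2 difference of 3.56 ± 0.50 (SE) with a limma adjusted p of 0.0003.

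Mcm7, which with Mcm4 and Mcm6 can form a smaller complex with helicase activity, was the steadiest member across tumours. Its lowest, median and highest tumour signals were 2760, 3636 and 4592, and its muscle signals were 690, 588 and 464. The highest tumour was only 1.66 times the lowest, and no tumour came near the muscles. On the log2 scale the difference was 2.57 ± 0.31 (SE; limma adjusted p = 9.4e-05), and the call was kept whichever single array was left out.

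Mcm4 had tumour signals of 436, 1391 and 1607 (lowest, median and highest) and muscle signals of 272, 298 and 200. All tumours but tumour 1 lay at 1284 or above. It rose by 2.15 ± 0.41 (SE) on the log2 scale, or 4.43-fold, with a limma adjusted p of 0.0027.

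Mcm5, which with Mcm2 forms the gate of the ring, had tumour signals of 309, 562 and 1199 and muscle signals of 139, 179 and 27.8. Here the order of tumours was different from that of Mcm2, Mcm4 and Mcm6: tumours 3 and 1 were highest, at 1199 and 861, and tumour 5 was lowest. Mcm5 rose by 2.41 ± 0.55 (SE) on the log2 scale (limma adjusted p = 0.0074). Without muscle 3, the dimmest muscle, it was 1.75 and the call was lost (adjusted p = 0.065).

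On the brightest probe sets Mcm3 and Mcm2 had the smallest differences of the ring; averaged over all its probe sets Mcm3 differed by 2.07. For Mcm3 the lowest, median and highest tumour signals were 584, 785 and 1336, and the muscles gave 305, 271 and 279. The muscles hardly varied, and all tumours lay above them. Mcm3 rose by 1.49 ± 0.36 (SE), or 2.8-fold (limma adjusted p = 0.011), and the call was lost without muscle 2 (adjusted p = 0.055) or muscle 3 (adjusted p = 0.058).

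The brightest Mcm2 probe set gave tumour signals of 554, 1647 and 2890 and muscle signals of 601, 587 and 220. This was the member whose groups overlapped, through tumour 1. Over the groups Mcm2 differed by 1.81 ± 0.48 (SE; limma adjusted p = 0.018). It was 1.35 without muscle 3 (adjusted p = 0.15) and 1.71 with median centring (adjusted p = 0.054), where the call was lost. The other Mcm2 probe set, 1448777_at, did not overlap: it gave 575, 826 and 873 in tumours and 260, 229 and 189 in muscles.

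The loading factors also rose. Cdt1, which brings the ring to the origin, had tumour signals of 1224, 1734 and 3179 and muscle signals of 408, 323 and 195. The lowest tumour, tumour 2, lay well above the highest muscle. The log2 difference was 2.63 ± 0.39 (SE), or 6.17-fold (limma adjusted p = 0.00042), and 1.46 as the mean of its 3 probe sets, 1 of them very dim (adjusted p = 0.019).

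Cdc6, the ATPase that recruits Cdt1 and the ring, was dimmer, with tumour signals of 231, 368 and 496 and muscle signals of 36.9, 119 and 30.5. Muscle 2 stood above the other muscles but below every tumour. Cdc6 rose by 2.41 ± 0.45 (SE; limma adjusted p = 0.0022), and differed by 1.44 against muscle 2 alone (adjusted p = 0.35).

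Gmnn, the inhibitor of Cdt1, rose together with its target. Its tumour signals were 532, 1020 and 2709 and its muscle signals 262, 281 and 214. The muscles were close to each other, while the tumours spread 5.09 times from lowest to highest. Gmnn rose by 2.12 ± 0.45 (SE) on the log2 scale, or 4.34-fold (limma adjusted p = 0.005).

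Mcm10, which joins the helicase after licensing, had the smallest difference of all members. Its tumour signals were 439, 713 and 1037 and its muscle signals 311, 295 and 233. The groups stayed apart, but by little: tumour 1, at 439, lay next to muscle 1. The log2 difference was 1.27 ± 0.34 (SE; limma adjusted p = 0.02). The call was lost without muscle 1 (adjusted p = 0.054), muscle 2 (0.074) or muscle 3 (0.12), with median centring (0.054), and as the mean of its 2 probe sets (0.18).

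Probe set by probe set, 20 of 23 were called higher and 3 were not called, in a fit over all 22626 probe sets of which 7.88% were called higher. For 19 of the 23 the groups did not overlap, against 10.1% of all probe sets in that direction. The 3 that were not called belonged to genes with other probe sets that were. Affymetrix marks with s or x those probe sets that can bind several transcripts: 8 of the 23 were of these kinds and all 8 were called, as were 12 of the other 15. They were the brightest for 5 genes, Mcm2, Mcm3, Mcm4, Mcm6 and Mcm7.

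**Figure D2:**
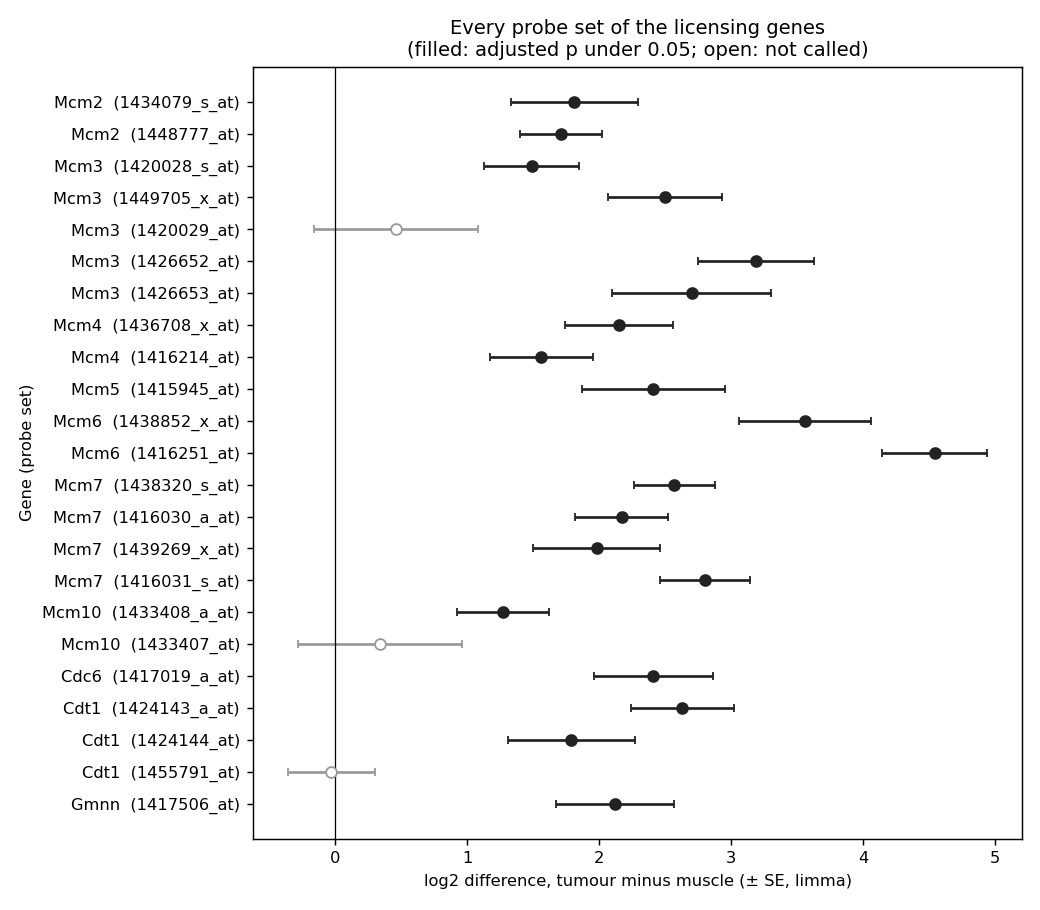
Log2 difference, tumour minus muscle, with its SE from limma, for every probe set of the 10 genes; filled points were called at an adjusted p under 0.05. The 20 called probe sets lie between 1.27 and 4.54, and the 3 open points, of Mcm3, Mcm10 and Cdt1, between -0.03 and 0.46.

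Mcm3 shows how far probe sets of a single gene can differ. Its 5 probe sets gave log2 differences of 0.46 to 3.19. At the upper end, 1426652_at gave tumour signals of 220 to 571 and muscle signals of 16, 20 and 21.2, the latter a mean near the bottom of all muscle probe sets (percentile 6.13). At the lower end, 1420029_at gave 66.8 to 522 in tumours and 195, 119 and 89.7 in muscles, and only tumours 1 and 4 (489 and 522) lay above the muscles. This range covers the differences of all other members but Mcm6 (3.56), and differences among the subunits were not tested.

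For Mcm6 the dimmer probe set gave the larger difference. Probe set 1416251_at had tumour signals of 586, 923 and 1729 and muscle signals of 18.2, 28.3 and 24.7, a 23.3-fold rise in the probe set fit (log2 difference 4.54 ± 0.40, SE; limma adjusted p = 1.4e-05). Tumour 1, the lowest tumour on the brighter Mcm6 probe set, gave 886 here and was not set apart. The mean of the muscles lay at percentile 8.23 of all muscle probe sets, so that the fold rests on muscle signals near the lowest on the array.

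The 4 Mcm7 probe sets were all called, with log2 differences of 1.98 to 2.80, and so were both of Mcm4 (1.56 and 2.15). On the Mcm7 probe set 1439269_x_at tumour 1 gave 2533, against 423 to 848 in the other tumours. Of the 3 Cdt1 probe sets, 1455791_at read 2.03 to 29.8 in tumours and 7.19 to 16.1 in muscles, among the dimmest probe sets in both groups. The other Cdt1 probe sets differed by 2.63 and 1.79. The second Mcm10 probe set, 1433407_at, overlapped between the groups, with 21.3 to 334 in tumours and 46.0 to 107 in muscles.

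Tumours did not rank alike for all members. On the brightest probe sets tumour 4 was highest for 4 of the 10 genes (Mcm2, Mcm3, Mcm4 and Cdt1) and tumour 5 for 3 (Mcm6, Cdc6 and Gmnn). Tumour 3 was highest for 2 (Mcm5 and Mcm10) and tumour 2 for Mcm7. There tumour 1 was lowest for 5 (Mcm2, Mcm4, Mcm6, Mcm10 and Cdc6) and highest for none. On other probe sets tumour 1 was lowest for Mcm2, Mcm4 and Cdt1 (1424144_at). It was highest for Mcm7 (1439269_x_at), Mcm10 (1433407_at) and Mcm3 (1449705_x_at and 1426653_at). The SD of log2 values over the 6 tumours ran from 0.30 for Mcm7 to 0.83 for Gmnn, with a median of 0.64 for the members and 0.70 for all genes.

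**Figure D3:**
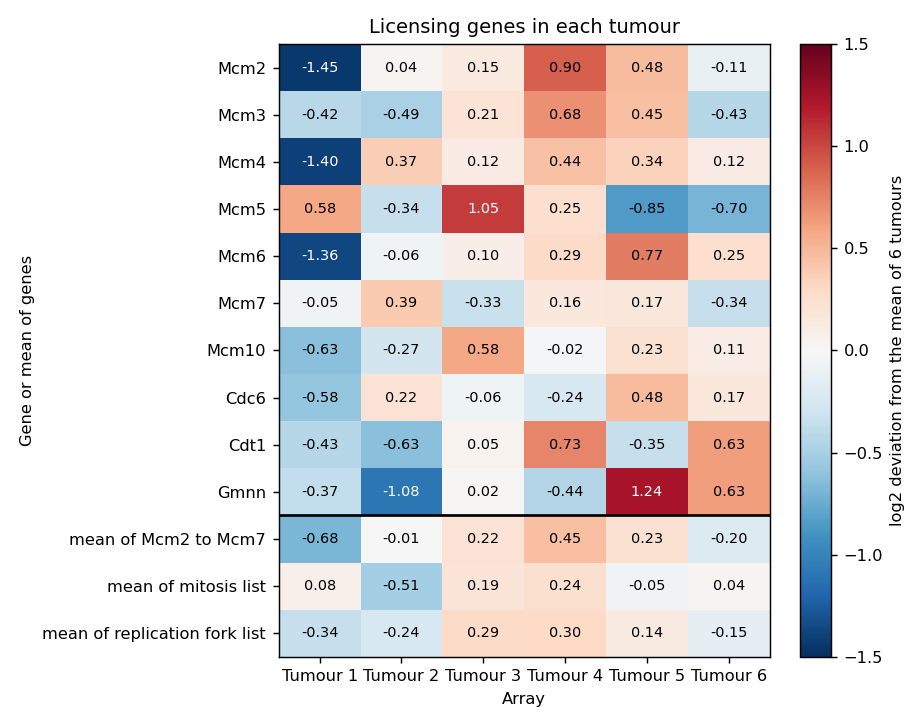
Deviation of each licensing gene from its mean over the 6 tumours (log2 scale, brightest probe set), with the means of Mcm2 to Mcm7, of the mitosis list and of the replication fork list below the line. Tumour 1 is at -1.45, -1.40 and -1.36 for Mcm2, Mcm4 and Mcm6 but at 0.58 for Mcm5.

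The mean of Mcm2 to Mcm7 lay above the muscle mean in every tumour, by 1.65 in tumour 1 and by 2.13 to 2.79 in the other 5 on the log2 scale. Within tumour 1 the subunits were spread from 0.36 (Mcm2) to 3.00 (Mcm5). Tumour 1 also held the highest summed signal of skeletal muscle markers among tumours (58809) and of myeloid markers (33206). Most of the latter was Csf1r (26580), while Ptprc, at 152, was lower there than in the other tumours (1083 to 4799). It was not low for every gene of division: the mean of the mitosis list lay at 0.08 there, near the tumour mean, and at -0.51 in tumour 2. The part of these markers in the values of tumour 1 was not tested.

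Cdt1 and its inhibitor Gmnn had their highest values in different tumours, but tumour 6 was next highest for both. Tumour 4 gave 3179 for Cdt1 and 837 for Gmnn, tumour 5 gave 1491 and 2709, and tumour 6 gave 2959 and 1779. On the brightest probe sets both were at their lowest in tumour 2, at 1224 and 532. There both genes exceeded every muscle in each tumour.

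The muscles had an order of their own. On the brightest probe sets muscle 3 was the dimmest muscle for 9 of the 10 genes after its signal had been multiplied by 3.5493, the exception being Mcm3. On the other probe sets it was dimmest for Mcm2, Mcm4, Mcm10 and Cdt1 too, but not for Mcm6 or Mcm7. Probe set 1416030_a_at of Mcm7 gave 278 on muscle 3, against 162 and 152 on muscles 1 and 2. The share of all genes dimmest on muscle 3 was not counted. As deposited, without rescaling, the 10 genes were likewise all called, and their median difference was 2.90 against 0.79 for all genes.

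The other genes of licensing were mostly not called. Of 16 measured genes of that list 4 were called higher and 12 were not called, with a median log2 difference of 0.42, where 8.66% of all genes were called higher. The 3 largest rises were those of genes that control the licensing step. Skp2, the substrate adaptor of a ubiquitin ligase that can target Cdt1, gave 1015 to 3157 in tumours and 35.4, 130 and 72.4 in muscles, a log2 difference of 4.39 ± 0.44 (SE; limma adjusted p = 2.5e-05), or 2.95 averaged over its probe sets. Dtl, the adaptor of a further ligase that destroys Cdt1 in S phase, gave 49.2 to 1058 in tumours and 17.4, 91.9 and 31.5 in muscles, with the low value in tumour 1 and a log2 difference of 3.12 ± 0.75 (SE; adjusted p = 0.011). Averaged over its probe sets Dtl differed by 2.36. The Dtl call was lost without muscle 1 (adjusted p = 0.059) or muscle 3 (0.055). Ccna2, cyclin A2 of S and G2 phase, gave 1496 to 3730 in tumours and 143 to 451 in muscles, a 7.84-fold rise. Of this list 2 genes were called without muscle 3.

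Of the 6 genes of the origin recognition complex, Orc1 to Orc6, 0 were called (limma; 1 of 6 at an unadjusted p under 0.05). Of all genes 17.8% were called in either direction. The 6 Orc genes are named as a family because of these values, after they were seen. Their log2 differences ran from 0.04 (Orc3) to 1.45 (Orc6), with a median of 0.42. Orc6, at the upper end, gave 181 to 776 in tumours and 120, 114 and 113 in muscles (limma adjusted p = 0.053). Its groups did not overlap, which held for 10.7% of all genes in that direction. Orc3 gave 305 to 529 in tumours and 411, 360 and 476 in muscles. Whether the licensing genes differed more than the origin recognition genes was not tested.

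The next list holds genes that fire the licensed origin. Of 10 measured, 7 were called higher, against 8.66% of all genes, and 3 were not called. The median log2 difference of the 10 was 1.73. Dbf4, the activating subunit of the kinase Cdc7, gave 360 to 1160 in tumours and 34.9, 71.6 and 77.8 in muscles, an 8.32-fold rise (limma adjusted p = 0.00034). Cdc7 itself, which phosphorylates the Mcm ring, gave 196 to 1486 in tumours and 100, 115 and 97.1 in muscles, a 4.67-fold rise (adjusted p = 0.0075). Both had their highest value in tumour 2. Averaged over the probe sets of each gene, the log2 differences of Dbf4 and Cdc7 were 1.75 and 1.20 instead of 3.06 and 2.22. Wdhd1, which links the helicase to DNA polymerase alpha, rose 5.17-fold. Gins4, Recql4 and Donson, with log2 differences of 0.50, 0.27 and 0.67, were not called. The difference of Recql4 turned to -0.18 without tumours 1 and 4 and to -0.40 against muscle 1 alone.

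**Figure D4:**
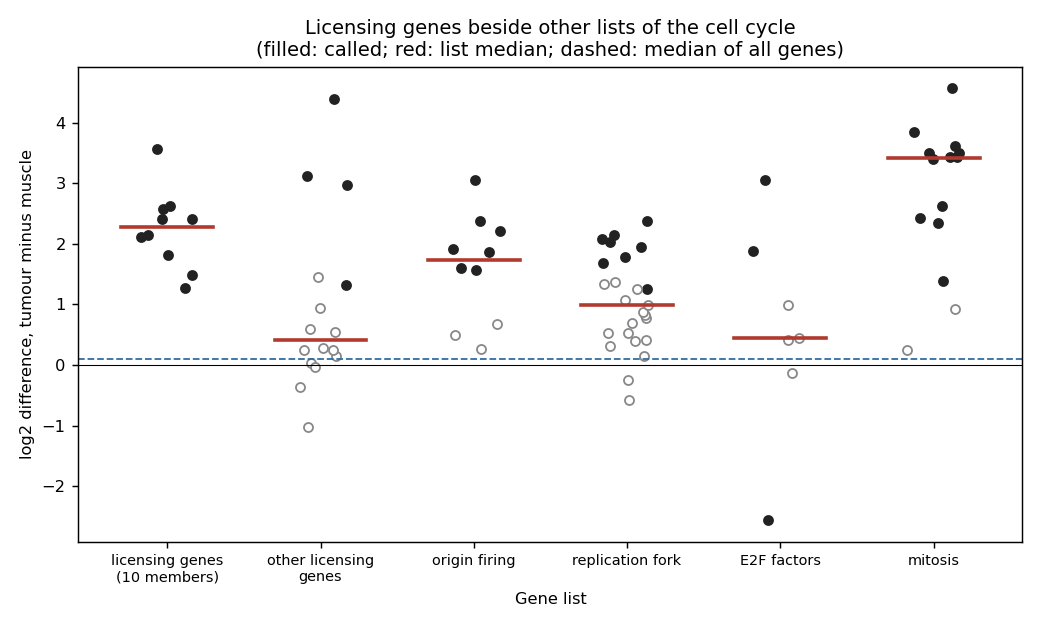
Log2 difference, tumour minus muscle, of each measured gene (brightest probe set) in the licensing genes and 5 other lists; filled points were called, red bars are list medians and the dashed line is the median of all genes (0.10). All 10 licensing genes are filled, with a median of 2.28, and 12 of the 14 mitosis genes, with a median of 3.42, against 4 of 16 other licensing genes.

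Of 25 measured genes of the replication fork 8 were called higher, against 8.66% of all genes, and 17 were not called. The median log2 difference of the 25 was 0.99. The 3 largest rises were of Fen1 (5.21-fold), the nuclease that trims Okazaki fragments, and of the polymerase genes Pole (4.4-fold) and Pola1 (4.22-fold). The Fen1 call was lost without muscle 3 (limma adjusted p = 0.067) and that of Pola1 without muscle 2 (0.12). The count of 8 was 5 without muscle 2 or without muscle 3, and 15 without the rescaling of 2 muscle arrays.

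Of the 7 measured E2F and dimerisation partner genes 2 were called higher, 1 lower and 4 not called. E2f8, a repressor of the family, rose 8.35-fold, and E2f1, an activator, 3.71-fold. E2f1 gave 346 to 1088 in tumours and 173, 194 and 91.8 in muscles (limma adjusted p = 0.006), and its call was lost without muscle 3 (0.055). E2f6, another repressor, gave 381 to 1275 in tumours and 3108, 5084 and 7307 in muscles and fell by 2.56 on the log2 scale. Among all genes 8.66% were called higher and 9.09% lower.

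Of 14 measured genes of mitosis 12 were called higher, against 8.66% of all genes, and the median log2 difference of the 14 was 3.42. With the probe sets of each gene averaged, 12 were called too, but the median was 2.12, against 2.09 for the licensing genes. Cdc20, an activator of the anaphase-promoting complex, gave 2358 to 28359 in tumours, the highest in tumour 1, and 112 to 360 in muscles. Averaged over its probe sets Cdc20 differed by 2.48 on the log2 scale instead of 4.57. Birc5 (survivin) rose 14.4-fold. Bub1, a checkpoint kinase, was called at a log2 difference of 3.62, or 1.83 averaged over its probe sets, and its muscle signals of 21.9, 10.4 and 8.56 were among the dimmest. Aurka and Foxm1, with log2 differences of 0.24 and 0.92, were not called, and that of Aurka turned to -0.15 without tumours 1 and 4. Foxm1 was called without tumour 2 (limma adjusted p = 0.032).

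Markers of some other cells differed between the groups too, in both directions. Of 9 myeloid markers 7 were called higher, against 8.66% of all genes. Lyz2 (log2 difference 1.86) and Itgam (-1.01) were not called. The summed signal of the 9 was 9183 to 33206 in tumours and 3185 to 4223 in muscles. Of the 5 T cell and 3 B cell markers none was called, with sums of 212 to 876 and 157 to 745 in tumours against 291 to 444 and 373 to 524 in muscles. Endothelial sums were 617 to 1737 in tumours and 2224 to 2545 in muscles, fibroblast sums 10027 to 59117 and 30598 to 37021, adipocyte sums 145 to 1213 and 7613 to 9761, and erythroid sums 38.0 to 11169 and 443 to 958. The part of these cells in the rise of the licensing genes was not tested.

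The genes whose profile over the 9 arrays lay closest to the mean of Mcm2 to Mcm7 were found among 12383 other genes by the root mean square difference of log2 values, each centred on its own mean. They were Hsp90aa1 (0.23), a cytosolic chaperone gene; Snrpg (0.25), of the spliceosome; Pclaf (0.31), a partner of the replication clamp; Tacc3 (0.31), of the mitotic spindle; and Cenpa (0.32), the centromeric histone. The median over these other genes was 1.31 and their 1st percentile 0.53. The members themselves lay between 0.34 (Mcm4) and 0.71 (Mcm5), although Mcm2 to Mcm7 made up the mean. Mcm10 (0.59), Gmnn (0.68), Mcm6 (0.69) and Mcm5 thus lay farther from it than that percentile. The arrays share the tumour and muscle contrast, so that the likeness of these profiles is a description.

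**Figure D5:**
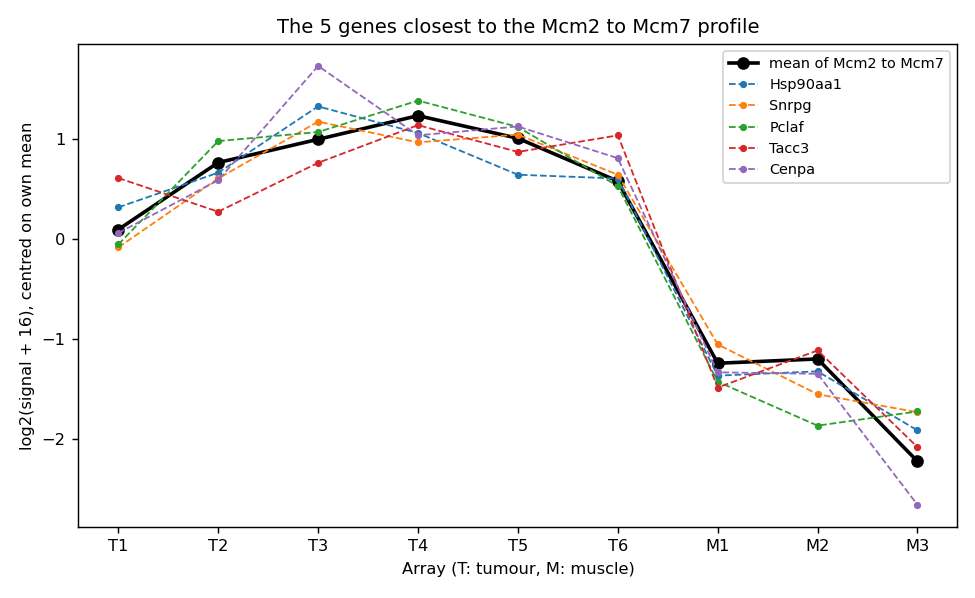
Log2(signal + 16), centred on its own mean, on each array for the mean of Mcm2 to Mcm7 (black) and the 5 other genes closest to it. Each of the 5 is high in all 6 tumours and low in all 3 muscles, with root mean square differences from the black line of 0.23 to 0.32.

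Pclaf, the closest gene of DNA replication, gave 1001 to 2738 in tumours and 377, 274 and 304 in muscles. As for the mean of Mcm2 to Mcm7, its lowest tumour was tumour 1 and its highest tumour 4. Cenpa gave 501 to 1628 in tumours and 181, 179 and 62.7 in muscles, with tumour 3 highest.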

How the data were processed

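Each of the 9 samples was biotin-labelled and hybridised to 1 Affymetrix array. The authors deposited linear signal intensities, which the submitters' processing notes attribute to MAS5 without a version. No source used here states the scaling target. The trimmed mean (2% at each end) was 500.2 on 7 arrays, 294.3 on muscle 1 and 140.9 on muscle 3, so each array was multiplied to the median of these. Of 22690 probe sets 64 controls were left out. 20380 had 1 platform symbol, 691 several and 1555 none, and 20351 of the first were found in a GRCm38.p6 gene table, with 0 symbols updated. Of several probe sets, the one brightest on average over the 9 arrays (log2) stood for the gene, which can favour those bright in tumours.

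Tests used limma 3.58.1 in R 4.3.3 (lmFit, eBayes with trend, no covariates) on log2(signal + 16), by gene and by probe set. On simulated data for the comparison by gene, with 200 of 12393 genes changed, the fit called 0% of 2-fold and 35% of 4-fold changes, with 1 false call. The data gave 2200 called genes. With fewer changed genes the adjustment is stricter, so these shares do not carry over to the data. Python 3.11.15 (pandas 2.3.3, numpy 2.4.6, scipy 1.17.1) gave the other values. The members, lists and tests were chosen with earlier results of these data known. Besides the members, the text names, per list, the 3 called genes that differed most one way and at most 2 the opposite way, the uncalled genes where these were 3 or fewer, and the 5 closest profiles; exceptions are said to be chosen after their values were seen. The number of arrays limits the precision.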

Additional observations from a re-analysis of the deposited data

Results flagged for a closer look

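Over the 6 tumours, the lowest and the highest value of each of the 23 licensing probe sets were compared with the rest on the log2 scale. A single value stood apart: on the brightest Mcm4 probe set tumour 1 gave 436, while the other 5 tumours gave 1284 to 1607. The gap to the nearest tumour was 0.83 of the whole range, above Dixon's 95% critical value for 6 samples. Chance sets apart about 1 in 20 groups. On the other Mcm4 probe set tumour 1 was also lowest, at 522, but the next tumours were closer, at 827 and 844.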

How the results depend on the processing

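All 10 licensing genes stayed higher in tumours under all alternatives run. Leaving out 1 array gave 6 to 10 of the licensing genes, 12 to 20 of their 23 probe sets, 1110 to 2769 of all genes and 1700 to 4369 of all probe sets. The lists gave 2 to 5 (other licensing), 5 to 7 (origin firing), 5 to 11 (replication fork), 1 to 3 (E2F) and 11 to 13 (mitosis) genes called higher. The differences then ran from 1.35 to 2.10 for Mcm2, 1.35 to 1.58 for Mcm3, 1.75 to 2.83 for Mcm5 and 1.15 to 1.39 for Mcm10. Chosen after seeing the data, a fit with muscle 1 as the only muscle, assumed to vary like the tumours, called 0 licensing genes (8 at an unadjusted p under 0.05), 2 of their probe sets, 173 genes, 250 probe sets, and 1, 1, 1, 0 and 3 genes of those lists in the same order (for E2F 3, in either direction, at an unadjusted p under 0.05). The log2 differences of Mcm2 to Mcm7, Mcm10, Cdc6, Cdt1 and Gmnn, none called, were 1.34, 1.39, 2.05, 1.92, 3.10, 2.31, 1.11, 2.80, 2.18 and 2.06. With muscle 2 as the only muscle 1 licensing gene (Mcm7), 3 of their probe sets, 217 genes and 361 probe sets were called, and 2, 1, 0, 0 and 5 genes of the lists (for the replication fork 7 and for E2F 3 at an unadjusted p under 0.05); the other 9 genes gave 1.37, 1.55, 1.93, 1.59, 2.89, 1.18, 1.44, 2.50 and 1.96. With so few arrays the test has little power. Median centring lost Mcm2 (1.71) and Mcm10 (1.16), and averaging the probe sets of each gene lost Mcm10 (0.80) and lowered Cdt1 to 1.46, Skp2 to 2.95, Dtl to 2.36, Dbf4 to 1.75, Cdc7 to 1.20, Cdc20 to 2.48 and Bub1 to 1.83, all 7 still called; Pclaf was lowered too (limma adjusted p = 0.015). Without rescaling, 15 replication fork genes were called. Among other named genes, the difference of Recql4 turned to -0.18 and that of Aurka to -0.15 without tumours 1 and 4, and that of Recql4 to -0.40 against muscle 1 alone. The cause of these changes was not tested. The labels do not say whether the replicate numbers 1 to 3 pair the samples. The deviations of same-numbered tumours and muscles correlated at 0.23, 0.21 and -0.02, and those of differently numbered ones at -0.25 to 0.08. With 3 arrays of each group these correlations cannot settle the question. A fit with the replicate number as a block, on 6 arrays, called 1467 genes and 7 of the 10 licensing genes; Mcm2 (1.39), Mcm3 (1.25) and Mcm10 (1.16) were not called, origin firing and the replication fork gave 3 genes each, and Recql4 turned to -0.06. Cdc6 was too dim for the fit without dim genes. Signals near background, such as those of Mcm6 in muscle, limit the folds.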

Other observations

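The following genes of the fork itself were chosen after their values were seen. Of the clamp loader genes Rfc1 to Rfc5, Rfc5 was called higher, with 497 to 1005 in tumours and 171, 178 and 192 in muscles (log2 difference 2.03 ± 0.35, SE; limma adjusted p = 0.0012), while Rfc1 to Rfc4 were not called, with differences of 0.53, 0.82, 1.26 and 0.87. The clamp gene Pcna rose 3.83-fold, with 1308 to 5631 in tumours and 1147, 701 and 857 in muscles, and was lowest in tumour 1. Both primase genes, Prim1 and Prim2, were called, at 3.44-fold and 3.2-fold. Of all genes 8.66% were called higher. Rpa1, the large subunit of the protein that coats single-stranded DNA, gave 2625 to 4666 in tumours and 3850, 2758 and 3155 in muscles, with a difference of 0.15 ± 0.32 (SE). Whether these genes differ from each other was not tested.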
